A study of Mus musculus with 9 samples.

Results

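AP-1 is a dimeric transcription factor. The genes described here are its 4 Fos members (*Fos*, *Fosb*, *Fosl1*, *Fosl2*), its 3 Jun members (*Jun*, *Junb*, *Jund*), its stress-induced relative *Atf3*, and *Egr1*, a zinc finger factor induced by the same growth factor signals. They were picked by gene symbol, 9 of 23332 gene rows in each sample, and with the values of these same comparisons known. Their levels and changes are therefore given as a description, without p-values for single members. Where members past a threshold are named, that is a description too and not support for a change. Each symbol stood in 1 row, none was at an FPKM of exactly 0 in any sample, and all 9 passed the filter on low values that left 11339 rows for testing.

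Proteins of the Fos group have to pair with a Jun protein to bind DNA, whereas Jun proteins can also pair with each other or with members of the ATF group. Several of these genes are immediate early genes, whose transcripts rise within minutes of a growth factor, hormone or stress signal without new protein synthesis and usually fall again within hours. Estrogen receptor α can act directly at its own DNA elements or through factors such as AP-1 that are already bound to DNA, and *FOS* is a long-known estrogen-responsive gene in breast and uterine cells.

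RNA was sequenced from MOE cells, a line of mouse oviductal epithelial cells from the FVB strain that was described with the study as monoclonal and secretory. The line is grown with E2 and epithelial growth factor, and all samples were hormone starved for 48 h in charcoal-stripped medium and were then kept for 24 h with 0.1% DMSO, the solvent, with 1 nM estradiol (E2), or with 100 nM 4-hydroxytamoxifen (4OHT), a selective estrogen receptor modulator, in 3 samples each. The 2 ligands were given at 1 dose each, 100-fold apart, so the ligands were not compared at a matched dose. The deposited values are FPKM, read numbers divided by the length of the transcript and by the mapped total of the library, so that the levels of different genes can be set side by side. All samples were taken at 24 h, and the first hours after treatment were not measured.

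The upstream sequences of those genes with a window used here that were higher with E2 in every replicate pair are shown first, together with that of *Junb*, which was not. They are the 250 bases before the RefSeq transcription start in the GRCm38.p6 assembly, written 5′ to 3′ on the strand of the gene, and come from the C57BL/6J reference genome rather than from FVB. RefSeq windows were at hand for 7 of the 9 genes, all but *Fosl1* and *Egr1*. Capitals mark TGACG, the core of the cyclic AMP response element, on either strand, and the longer form TGACNTCA bound by Jun and ATF dimers.

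Fos, chr12:85473640-85473889, plus strand: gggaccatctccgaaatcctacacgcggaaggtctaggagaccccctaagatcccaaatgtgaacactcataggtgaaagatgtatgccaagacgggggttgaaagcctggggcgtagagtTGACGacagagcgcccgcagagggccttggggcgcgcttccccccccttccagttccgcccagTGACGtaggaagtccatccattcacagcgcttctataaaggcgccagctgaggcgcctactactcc
Fosb, chr7:19310046-19310295, minus strand: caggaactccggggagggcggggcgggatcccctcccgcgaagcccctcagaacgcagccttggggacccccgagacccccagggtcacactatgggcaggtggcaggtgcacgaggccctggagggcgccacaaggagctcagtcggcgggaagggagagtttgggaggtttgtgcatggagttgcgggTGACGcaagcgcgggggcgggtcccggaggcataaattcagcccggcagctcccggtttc
Jun, chr4:95052223-95052472, minus strand: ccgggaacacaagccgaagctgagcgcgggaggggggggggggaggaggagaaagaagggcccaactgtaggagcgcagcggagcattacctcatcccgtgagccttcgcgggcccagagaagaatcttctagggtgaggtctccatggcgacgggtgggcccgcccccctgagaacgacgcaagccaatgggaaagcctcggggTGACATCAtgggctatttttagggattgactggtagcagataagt
Atf3, chr1:191183334-191183583, minus strand: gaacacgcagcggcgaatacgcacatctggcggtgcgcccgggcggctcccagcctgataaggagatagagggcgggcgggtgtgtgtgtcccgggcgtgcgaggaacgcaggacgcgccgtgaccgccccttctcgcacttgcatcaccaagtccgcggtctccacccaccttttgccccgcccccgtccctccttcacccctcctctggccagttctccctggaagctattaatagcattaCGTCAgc
Junb, chr8:84978749-84978998, minus strand: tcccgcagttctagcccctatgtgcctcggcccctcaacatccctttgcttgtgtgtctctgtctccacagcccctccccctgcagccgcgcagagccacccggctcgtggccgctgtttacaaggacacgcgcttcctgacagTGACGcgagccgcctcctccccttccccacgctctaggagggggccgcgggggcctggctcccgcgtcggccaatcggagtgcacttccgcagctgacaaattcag

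The TGACG core stood in 4 of the 7 windows (*Fos*, *Fosb*, *Junb* and *Atf3*), against 17.8% of all 32851 RefSeq windows of this length. In *Fos* it occurred 129 and 66 bases before the start, in *Fosb* 60 bases, in *Junb* 106 bases and in *Atf3*, on the other strand, 7 bases before it. *Jun* instead had TGACATCA at 45 bases, a form of TGACNTCA present in 7.49% of all windows. The AP-1 site TGANTCA (6.75% of all windows), the palindromic TGACGTCA (1.55%, which holds TGACG and is a form of TGACNTCA), the full estrogen response element GGTCANNNTGACC (0.0639%) and the CArG box of serum response factor (1.47%) were found in 0 of the 7 windows. A single arm of the estrogen response element, GGTCA, was in 3 of the 7 (*Fosb*, *Jund*, *Atf3*), beside 35.2% of all windows. All motifs were searched on both strands. The *Jund* window ended at base 70697738, upstream of the start of the GENCODE gene at 70698949. The *Fosl2* and *Atf3* windows lay within their GENCODE genes, so the counts refer to the RefSeq starts alone. These matches describe letters in a short window, and nothing was measured about binding. Sites further upstream, and any of *Fosl1* and *Egr1*, were not searched, so a motif not found here may still lie near these genes. The TGACG core stood before *Junb*, which was not higher with E2 in every pair, and not before *Jun*, which was. The part of these motifs in the response to E2 was not tested.

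*Jund* was the most abundant of the 9 transcripts. By the median over the 9 samples the order of levels was *Jund* (108 FPKM), *Junb* (81.1), *Fosl2* (58.6), *Jun* (14.9), *Egr1* (10.4), *Atf3* (8.64), *Fosb* (4.84), *Fos* (4.46) and *Fosl1* (2.61). The ranges of neighbours in this order overlapped for *Egr1* and *Atf3* and for *Fosb* and *Fos* in every condition, for *Fos* and *Fosl1* in DMSO and 4OHT, and for *Jun* and *Egr1* in E2. The other neighbours were apart in all 3 conditions. The 3 transcripts at 49.3 FPKM or more in every sample were *Jund*, *Junb* and *Fosl2*, and the inducible members *Fos*, *Fosb* and *Fosl1* were the lowest.

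*Fos*, the founding member and the classic immediate early gene, had the widest difference of the 9 between E2 and DMSO. It stood at 3.48, 2.29 and 3.78 FPKM in the 3 DMSO samples, at 9.90, 7.11 and 10.5 in the E2 samples, and at 4.46, 3.60 and 5.13 with 4OHT. Every E2 sample was above every sample of the other conditions, and the DMSO and 4OHT samples overlapped. Mean FPKM was 3.18 ± 0.790 with DMSO, 9.16 ± 1.80 with E2 and 4.39 ± 0.763 with 4OHT (SD, n = 3 each). With E2 the mean was 2.88-fold that of DMSO, and the fold within replicates 1, 2 and 3 was 2.85, 3.11 and 2.77. Replicate 2 was the lowest of the 3 in each condition, so that the ratio within a replicate number varied less than the levels did. With 4OHT the mean was 1.38-fold that of DMSO, with higher values in 3 of 3 pairs.

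*Fosb*, the closest relative of *Fos*, was at 3.28, 4.15 and 6.15 FPKM with DMSO, 4.84, 8.05 and 9.73 with E2 and 3.40, 4.32 and 5.79 with 4OHT. The groups overlapped because the replicates differed by about as much as the conditions: replicate 1 was the lowest and replicate 3 the highest in each condition. Within a replicate number E2 exceeded DMSO by 1.48-, 1.94- and 1.58-fold. The means with DMSO and 4OHT were 4.53 ± 1.47 and 4.50 ± 1.21 FPKM (SD, n = 3 each).

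*Fosl1*, which encodes Fra-1 and lacks a transactivation domain, had values in the opposite direction. It was at 2.24, 5.37 and 2.61 FPKM with DMSO, 1.74, 3.79 and 1.39 with E2 and 3.45, 5.56 and 2.02 with 4OHT. Replicate 2 was the highest in each condition and the groups overlapped, but E2 was below DMSO in 3 of 3 pairs, at 0.777, 0.705 and 0.531 of it. *Ccdc85b*, annotated on the other strand over 2767 bases of the *Fosl1* gene, was also highest in replicate 2 of each condition (10.9, 8.64 and 10.1 FPKM with DMSO, E2 and 4OHT) and below DMSO in 3 of 3 pairs with E2. The libraries kept strand, but whether the counting used it is not given in the sources used here, and the part of *Ccdc85b* in the *Fosl1* values was not tested.

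*Fosl2*, which encodes Fra-2, made up most of the Fos transcripts and differed little between conditions. Its values were 66.5, 50.1 and 56.2 FPKM with DMSO, 62.6, 58.6 and 61.9 with E2 and 61.7, 49.3 and 52.5 with 4OHT. E2 was above DMSO in replicates 2 and 3 and below it in replicate 1. The summed FPKM of the 4 Fos genes was 68.7 ± 6.77 with DMSO, 80.0 ± 3.04 with E2 and 67.1 ± 5.30 with 4OHT (SD, n = 3 each). *Fos* was 4.60 ± 0.905% of that sum with DMSO, 11.4 ± 1.94% with E2 and 6.56 ± 1.12% with 4OHT, and *Fosl2* was 83.6 ± 3.92%, 76.3 ± 2.59% and 81.1 ± 3.09%. Thus *Fosl2* remained the main Fos transcript with E2, and the share of *Fos* there did not overlap with that in either other condition.

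*Jun*, the partner of *Fos* in classic AP-1, was at 14.9, 13.8 and 14.4 FPKM with DMSO, 17.8, 15.3 and 15.7 with E2 and 16.6, 13.6 and 14.4 with 4OHT. The lowest E2 sample stood just above the highest DMSO sample, and the mean with E2 was 1.13-fold that of DMSO. The antisense gene *Junos* overlaps 689 bases of *Jun* at its start, so its reads may be part of these values unless strand was used.

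*Junb*, often a weaker activator than *Jun*, was at 68.0, 80.8 and 88.4 FPKM with DMSO, 68.6, 74.0 and 81.1 with E2 and 84.8, 83.1 and 92.2 with 4OHT. E2 and DMSO overlapped, whereas every 4OHT sample was above every E2 sample. The mean with E2 was 0.860 of that with 4OHT. *Prdx2*, on the other strand, shares 351 bases with the end of *Junb*, and it was at 408 to 461 FPKM over the 9 samples.

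*Jund*, usually the most constitutive of the Jun genes, was at 101, 116 and 99.6 FPKM with DMSO, 101, 109 and 108 with E2 and 126, 107 and 113 with 4OHT. All 3 groups overlapped. The antisense gene *Gm11175* lies within *Jund* over 919 bases. The sum of the 3 Jun genes was 199 ± 13.4 FPKM with DMSO, 197 ± 8.69 with E2 and 217 ± 12.3 with 4OHT (SD, n = 3 each), and *Jun* was 7.26%, 8.29% and 6.83% of it on average. Summed Jun transcripts thus exceeded summed Fos transcripts in every sample.

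**Figure D1:**
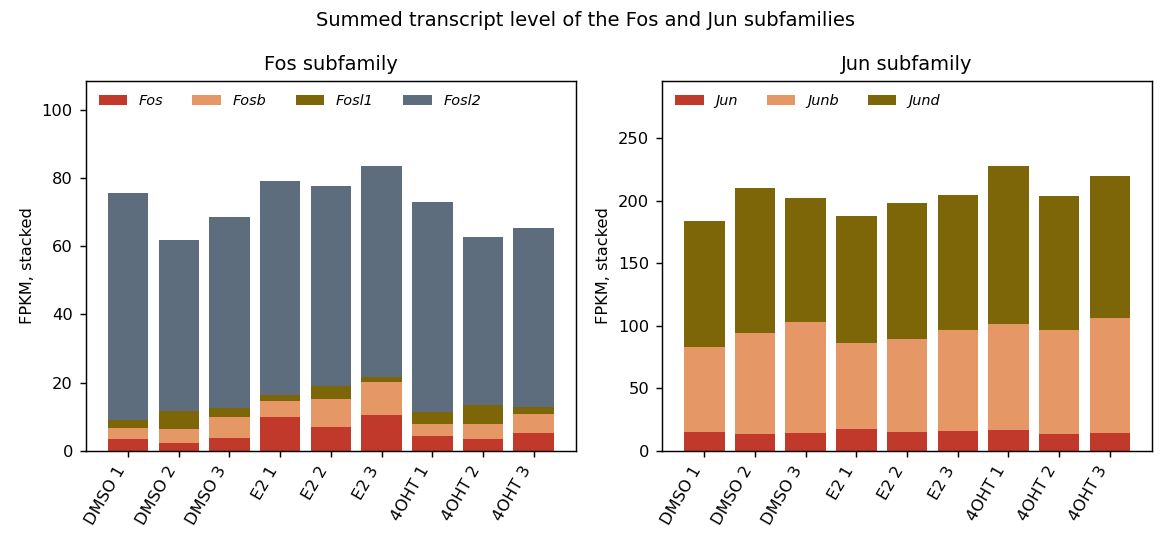
Stacked FPKM of the Fos genes (left) and the Jun genes (right), 1 bar per sample, with the condition and replicate number on the x axis. *Fosl2* is the tallest segment on the left in all 9 samples, the *Fos* segment is widest in the 3 E2 samples (mean 9.16 FPKM), and *Jund* and *Junb* make up most of each bar on the right.

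*Atf3*, which encodes a repressor or activator depending on its partner, was at 8.30, 8.64 and 7.98 FPKM with DMSO, 12.2, 12.2 and 11.7 with E2 and 9.03, 8.55 and 8.34 with 4OHT. Its replicates lay close together and every E2 sample was above all others. Mean FPKM was 8.30 ± 0.328 with DMSO, 12.0 ± 0.285 with E2 and 8.64 ± 0.353 with 4OHT (SD, n = 3 each), so E2 was 1.44-fold DMSO, and 1.47-, 1.41- and 1.46-fold within the replicate numbers.

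*Egr1* was at 9.10, 7.32 and 13.0 FPKM with DMSO, 11.2, 10.4 and 15.4 with E2 and 9.91, 8.66 and 12.3 with 4OHT. The groups overlapped, with replicate 3 the highest and replicate 2 the lowest in each condition. Within replicate numbers E2 was 1.23-, 1.42- and 1.19-fold DMSO. The 4OHT samples were above DMSO in replicates 1 and 2 and below it in replicate 3.

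**Figure D2:**
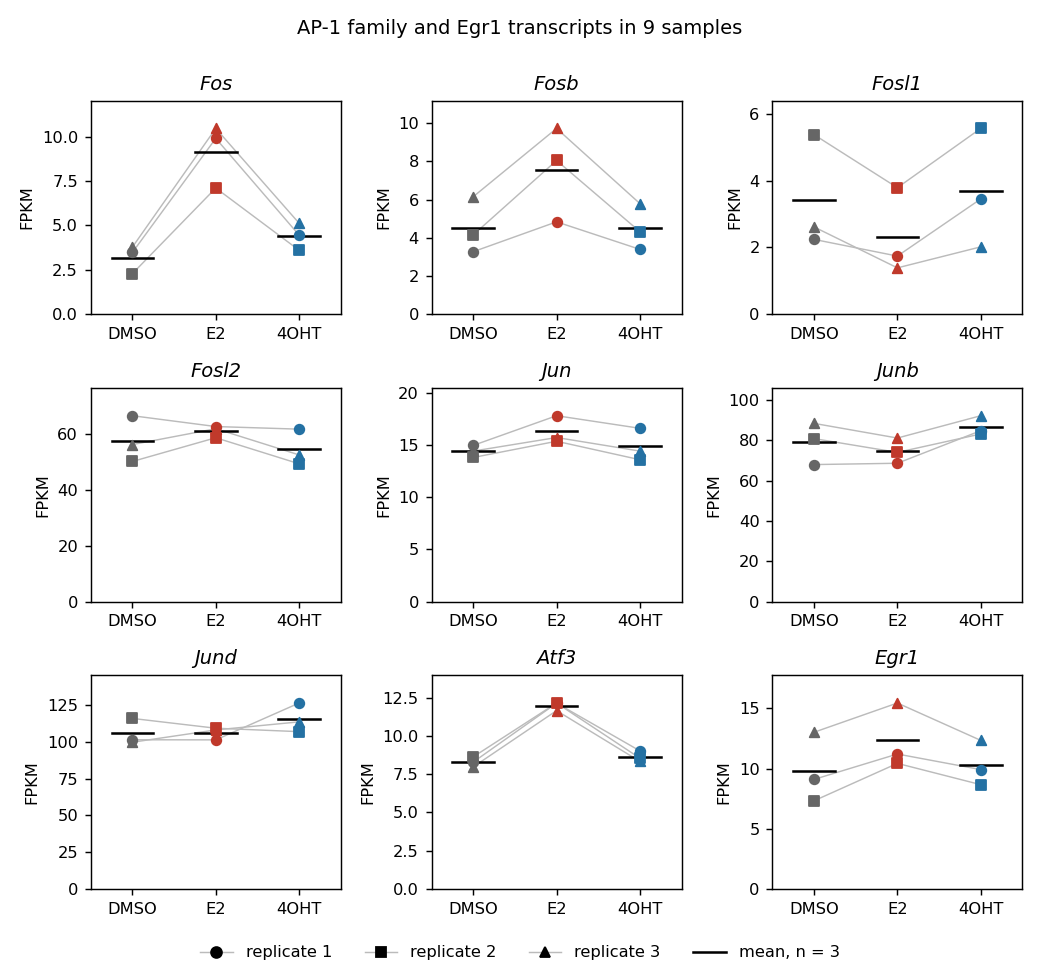
FPKM of each of the 9 genes (y axis, from 0) in the 3 samples of each condition (x axis); symbols give the replicate number, grey lines join samples with the same number and black bars are means of n = 3. *Fos* and *Atf3* are higher in all E2 samples than in any other sample, whereas for *Fosb*, *Fosl1* and *Egr1* the groups overlap.

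The comparison of E2 with DMSO asks which transcripts estrogen had shifted after 24 h. On the log2(FPKM + 1) scale, on which a fold change of a low gene is understated, the difference (E2 minus DMSO, standard error in parentheses) was 1.28 (0.19) for *Fos*, 0.62 (0.28) for *Fosb*, 0.48 (0.050) for *Atf3*, 0.32 (0.22) for *Egr1*, 0.17 (0.084) for *Jun*, 0.09 (0.11) for *Fosl2*, 0.01 (0.081) for *Jund*, -0.08 (0.10) for *Junb* and -0.42 (0.39) for *Fosl1*. The median of the 9 was 0.17, and that of all tested rows was -0.00. After Benjamini-Hochberg adjustment over the 11339 rows, limma placed 2 of the 9, *Fos* and *Atf3*, under an adjusted p of 0.05, where 0.512% of all tested rows passed (0.494% higher with E2). With the replicate number as a block the count was 5 of 9, with *Fosb*, *Jun* and *Egr1* added, all higher with E2, where 15.0% of all rows passed, 10.4% in that direction. That count was 3, 2 and 2 with replicate number 1, 2 or 3 left out of every condition. Since the genes were chosen with these values known, nothing is read from these counts or from which genes passed, here or in the comparisons below. E2 and DMSO samples did not overlap for *Fos*, *Jun* and *Atf3*, 3 of 9, and for 15.2% of all tested rows. E2 was above DMSO in all 3 pairs for 5 of the 9 and below it for 1. Of all tested rows, 28.1% were above and 24.3% below in all 3 pairs. With 1 sample left out at a time, *Fos* passed in 0 of 9 fits without the block and *Atf3* in 6 of 9, and with the block and 1 replicate number left out both passed in 3 of 3.

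For 4OHT and DMSO, which shares the DMSO samples with the comparison above, the differences were 0.38 for *Fos*, 0.14 for *Junb*, 0.13 for *Jund*, 0.09 for *Egr1*, 0.08 for *Fosl1*, 0.05 for *Atf3*, 0.04 for *Jun*, 0.00 for *Fosb* and -0.08 for *Fosl2*, with the same standard errors. Of the 9 genes 0 passed, without or with the block, and so did 0% of all tested rows. Over all rows 313 had an unadjusted p under 0.05 in limma, and 1480 with the block. The groups overlapped for all 9 genes, beside 7.94% of all rows without overlap. *Fos* and *Junb* were higher with 4OHT in 3 of 3 pairs and *Fosl2* was lower in 3 of 3. Of all tested rows, 30.2% were higher in all 3 pairs and 15.6% lower.

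Between E2 and 4OHT, *Fos* differed by 0.91, *Fosb* by 0.61, *Atf3* by 0.43, *Egr1* by 0.24, *Fosl2* by 0.17, *Jun* by 0.13, *Jund* by -0.12, *Junb* by -0.22 and *Fosl1* by -0.50 (E2 minus 4OHT). *Atf3* was the 1 gene of 9 past the threshold, where 0.159% of all rows passed, and it passed in 1 of 9 fits with 1 sample left out, the one without DMSO replicate 1. With the block 6 of 9 passed: *Fos*, *Fosb*, *Atf3* and *Egr1* were higher with E2 and *Fosl1* and *Junb* lower, where 16.2% of all rows passed, 8.63% higher and 7.60% lower. Without replicate number 1, 2 or 3 the count was 3, 2 and 1. *Fos*, *Junb* and *Atf3* had groups without overlap, 3 of 9, beside 18.3% of all rows. *Fos* itself was 2.08-fold higher with E2 than with 4OHT by the means.

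**Figure D3:**
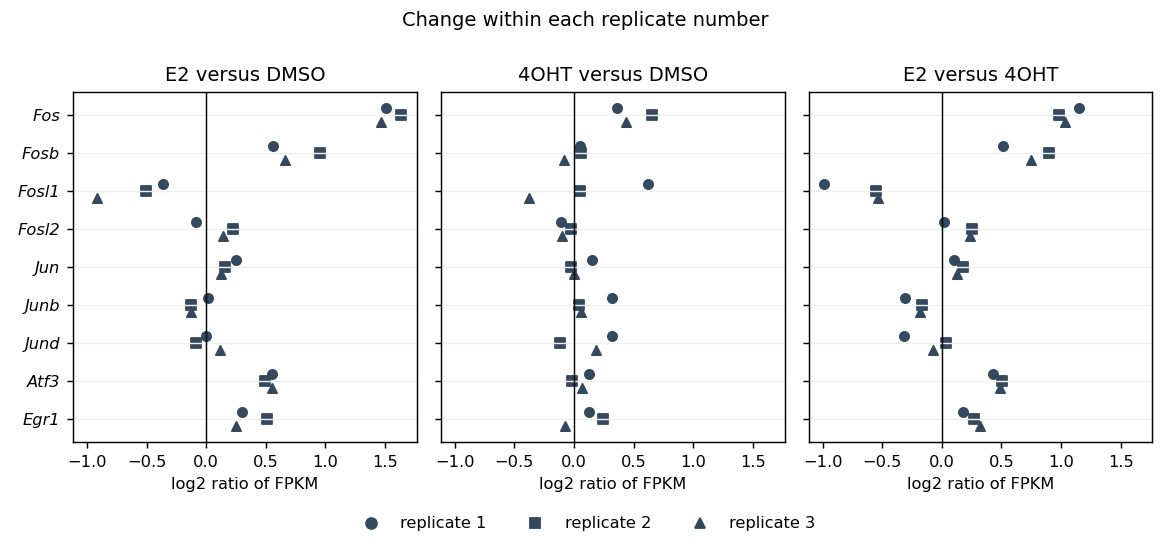
Log2 ratio of FPKM (x axis) within each replicate number for the 9 genes (y axis) in the 3 comparisons; symbols give the replicate number and the vertical line marks no difference. In E2 versus DMSO the 3 symbols of *Fos*, *Fosb*, *Jun*, *Atf3* and *Egr1* lie right of the line and those of *Fosl1* left of it, while in 4OHT versus DMSO most genes straddle it.

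The rest of the pathway was followed in 4 lists of 143 genes that leave out the 9, of which 139 had a row and 123 were tested: partners and repressors of AP-1, other immediate early genes, the kinases and serum response factors upstream, and genes known as AP-1 targets. For E2 versus DMSO 5 of the 123 rose and 0 fell, beside 0.494% of all rows higher and 0.0176% lower. With the block 34 rose and 13 fell, beside 10.4% and 4.63% of all rows. These counts depended on single samples: with 1 sample left out 1 to 3 of the 123 passed without the block, and with replicate number 1, 2 or 3 left out 17, 11 and 6 passed with it. For 4OHT versus DMSO the count was 0 in every list in limma, without and with the block. For E2 versus 4OHT it was 1 gene, *Ier3*, without the block and 27 higher and 16 lower with it. Of all rows, 0.159% passed without the block, and 8.63% higher and 7.60% lower with it. For E2 versus DMSO with the block, 40.0% of the partners and repressors passed and 55.3% of the other immediate early genes. It was 16.1% of the upstream list and 38.2% of the AP-1 targets, beside 15.0% of all rows. The lists too were chosen with earlier results of these data known. Their counts, shares and adjusted p-values, here and below, are therefore a description and not support for a change.

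Among the partners and repressors, 2 of 20 tested genes rose with E2 and 0 fell. *Creb5*, which encodes a CREB family factor that can pair with Jun, rose from 5.23 ± 0.494 to 9.41 ± 1.72 FPKM (SD, n = 3; adjusted p = 0.0476, limma), and was at 4.96 ± 0.144 with 4OHT. *Maff*, a small Maf factor without a transactivation domain, rose from 77.4 ± 8.49 to 123 ± 4.34 FPKM (adjusted p = 0.0213, limma) and was at 97.2 ± 5.11 with 4OHT. With the block 8 rose and 0 fell, among them *Cebpd* (log2 difference 0.59, adjusted p = 0.475 without and 0.0121 with the block). *Ddit3* and *Cebpb*, stress-responsive bZIP factors with the most negative differences (-0.15 and -0.14), did not pass in either fit. The median difference of the list was 0.02.

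Of the other immediate early genes 3 of 38 rose and 0 fell. *Ier3*, a target of NF-κB and growth factor signals, was at 99.6 ± 4.54 FPKM with DMSO, 164 ± 6.25 with E2 and 109 ± 1.32 with 4OHT, and E2 differed from both (adjusted p = 0.00390 and 0.0166, limma). *Errfi1*, a feedback inhibitor of the EGF receptor, rose from 59.1 ± 4.86 to 93.1 ± 3.12 FPKM (adjusted p = 0.0122, limma), and *Gadd45g*, a growth arrest and stress gene, from 63.0 ± 3.71 to 84.5 ± 5.85 (adjusted p = 0.0476, limma). With the block 15 rose and 6 fell. *Ctgf*, a matrix-associated growth factor, rose with the block alone (0.57, adjusted p = 0.685 without and 0.00463 with it), *Fst* and *Arc* fell with it (-0.41 and -0.34, adjusted p = 0.00635 and 0.0151 with the block), and the median was 0.10. *Egr2*, *Egr3*, *Egr4* and *Nr4a3* were too low to be tested.

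In the upstream list 0 of 31 genes passed without the block, and 3 rose and 2 fell with it, all by small amounts. The share with the block, 16.1%, was near the 15.0% of all rows. *Map2k1*, a kinase of the ERK cascade, had a difference of 0.18 (adjusted p = 0.0341 with the block), and *Elk3*, a cofactor of serum response factor, had 0.18 and did not pass. *Rps6ka1*, an ERK-activated kinase, and *Mkl1*, another such cofactor, had -0.20 and -0.18 (adjusted p = 0.0315 and 0.0277 with the block). The median was 0.06.

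Of the AP-1 targets 0 of 34 passed without the block, and 8 rose and 5 fell with it, with a median of -0.03. *Sprr1a*, a cornified envelope precursor, had the widest difference, from 506, 173 and 101 FPKM with DMSO to 1347, 1052 and 679 with E2 (log2 difference 2.25, adjusted p = 0.270 without and 0.00417 with the block). Replicate 1 was the highest and replicate 3 the lowest in each condition. *Spp1* (osteopontin) and *Plau* (urokinase) followed with 0.69 and 0.58, past the threshold with the block alone (adjusted p = 0.000845 and 0.00244). *Ccnd1*, which encodes cyclin D1, and the chemokine gene *Cxcl1* fell with the block alone, by 0.54 and 0.33 on the log2 scale (adjusted p = 0.0117 and 0.0254). *Mmp3*, *Mmp9*, *Mmp10*, *Mmp13* and *Il6*, often used as AP-1 readouts, were too low to be tested.

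Exact zeros stood in 4 of the 123 tested genes and are set apart. *Klf6* was listed at 0 in DMSO replicate 3 and at 64.3 to 93.9 FPKM in the other 8 samples. *Rps6ka3* was listed at 0 in DMSO replicates 1 and 2 and 4OHT replicate 3, *Fn1* in 5 samples and *Fscn1* in DMSO replicate 1 and 4OHT replicate 1. No fold is given for these, since genes at such levels elsewhere may be at 0 through a failed estimate.

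**Figure D4:**
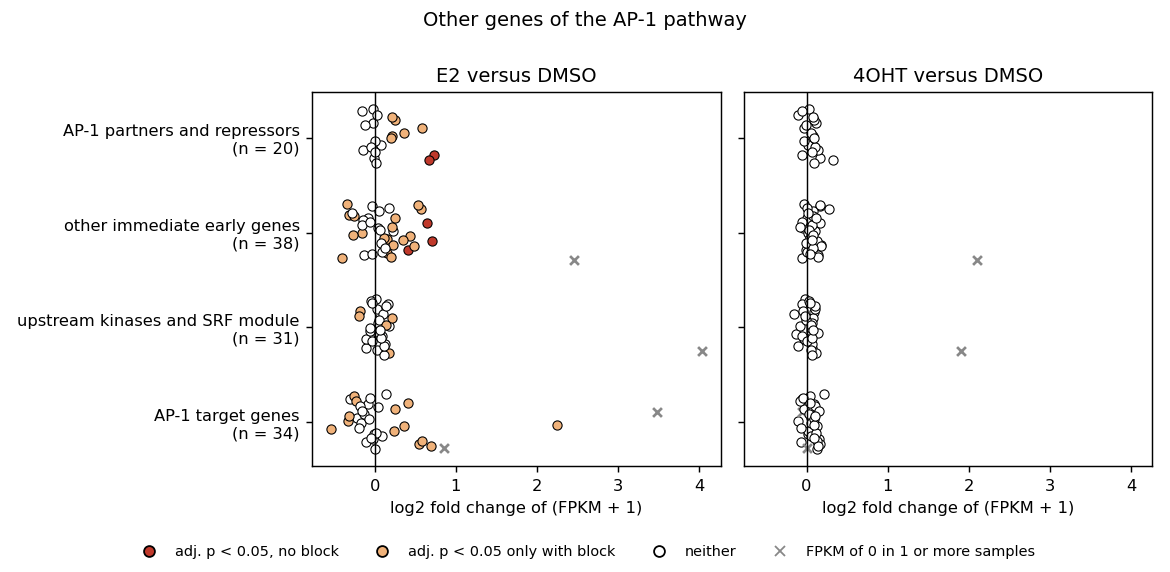
Log2 fold change of (FPKM + 1) for the 123 tested genes of the 4 lists (y axis) with E2 (left) and 4OHT (right) against DMSO; fill gives the test without and with the replicate block and crosses are the 4 genes with a listed 0. Filled points appear on the left panel alone, 5 of them past the threshold without the block.

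The profile over the 9 samples that most resembled that of *Fos*, among 11085 tested rows without an exact 0 and outside the 9 genes, was that of *Ass1* (Pearson r of log2(FPKM + 1) 0.991), followed by *Kdr* (0.990), *Csgalnact2* (0.982), *Tm9sf3* (0.980) and *Srp54b* (0.979). For *Jun* they were *Cdkn2d* (0.983), *Wdfy2*, *E2f6* and *Taf13* (0.960), for *Atf3* *Zbtb42* (0.973), *A530046M15*, *Arid5a*, *Rnf141* and *Nfkbia* (0.965), and for *Egr1* *Acaa1a* (0.968), *Arhgef18*, *Fzd6*, *Rnd3* and *Glt8d1* (0.964). These are the highest of 11085 values each, the points share their conditions and replicate numbers, and no p is given. *Ass1*, the urea cycle enzyme argininosuccinate synthase, was at 188, 311 and 215 FPKM on average with DMSO, E2 and 4OHT.

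The cells expressed the secretory cell factor *Pax8* (105 to 150 FPKM over the 9 samples) and the epithelial keratins *Krt8* and *Krt18* (334 to 799 FPKM), but the epithelial adhesion genes *Epcam* and *Cdh1* were near 0, at most 0.138 and 0.422 FPKM, and *Ovgp1*, the oviductal glycoprotein, was at 1.44 to 2.61. Of the ciliated markers *Foxj1* was at 8.95 to 15.9 FPKM, *Rsph1* at 2.98 to 3.86 and *Tppp3* at 1.18 to 3.38, and *Dnah5* had no row of its own. With E2 against DMSO the log2 difference was -0.40 for *Foxj1* (adjusted p = 0.304 without and 0.0176 with the block, limma), 0.19 for *Rsph1* (0.306 and 0.0533) and 0.16 for *Tppp3* (0.860 and 0.245), so 1 of these 3 passed, with the block alone, and their part in the results was not tested. Stromal, muscle, leukocyte and endothelial markers were at most 0.305 FPKM, other than *Col1a1* (1.84 to 6.73) and *Cd68* (3.01 to 4.01). *Esr1* was at 12.4, 5.98 and 5.995 FPKM with DMSO and 16.3, 9.32 and 8.31 with E2, highest in replicate 1, and *Esr2* was at most 0.130. The receptor target *Pgr* rose with E2 with the block alone (adjusted p = 0.212 without and 0.00253 with it, limma). It was at 9.58, 1.36 and 1.16 FPKM with DMSO and 38.1, 21.1 and 15.9 with E2. With 4OHT it was at 9.67, 3.67 and 2.39, and replicate 1 was the highest in each condition. In bulk RNA a change in the number of cells of a kind and in the RNA per cell cannot be told apart. Summed FPKM per sample ran from 522517 to 588640. Depth was not recovered from these FPKM, so no counting interval is given.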

How the data were processed

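Polyadenylated RNA of the 9 samples was sequenced by the authors as directional single-end reads, aligned to mm10 with TopHat2 2.0.8b and quantified over a UCSC annotation with Cufflinks and Cuffdiff 2.1.1, as the paper and the submitters' processing notes name them. The authors deposited FPKM per gene row, and whether these were further scaled between libraries is not given in the sources used here. Read totals were not used here, and whole reads could not be recovered from the FPKM. Of the symbols, 362 stood in several rows, and 293 rows had joined names. All rows were kept as deposited, exact zeros included.

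Conditions and replicate numbers came from the labels. The paper gives the treatments for sequencing as in triplicate, and its data in general as means of at least 3 experiments. It does not state that the sequenced replicates were separate cultures. The p-values therefore measure the spread between these samples, which may be technical. Rows that reached 1 FPKM in 3 or more samples were tested with limma 3.58.1 in R 4.3.3 on log2(FPKM + 1), in 1 fit of all 9 samples with a variance trend and Benjamini-Hochberg adjustment within each comparison. The threshold was an adjusted p under 0.05. A second fit, blocked by replicate number, is given beside it. Deviations from the condition means of same-numbered samples correlated by 0.160 on average over all 11339 rows, with 5 of 9 pairs over 0.1, and by 0.687 (0.523 to 0.828, 9 of 9 pairs over 0.1) over the 11094 rows without an exact 0, so the numbers, which come from the labels, were taken to pair the samples. The script was tested on simulated data.

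The 9 genes, the 4 lists and the markers were chosen with earlier results of these data known. Genes named were the 9, every list gene past the threshold without the block, the 3 highest and 2 lowest differences with E2 in each list among genes without an exact 0, the 5 rows most like *Fos*, *Jun*, *Atf3* and *Egr1*, the cell type markers, and the receptors with *Pgr*. Some genes that this rule selects are not reported here. Other genes are named for a missing or zero value, or because their annotation overlaps one of the 9, and were chosen after their values were seen. Where a symbol had 2 rows (*Elk3*, *Fst*) the row of higher mean was used. Gene overlaps are from GENCODE M21, and upstream sequences from RefSeq, read with Python 3.11.15. Alternatives were a pseudocount of 0.1, no filter, upper-quartile scaling, only the 6 samples compared, the block, exact zeros as missing with and without it, and each sample left out. Each replicate number left out of all conditions was added after seeing the data.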

Additional observations from a re-analysis of the deposited data

How the results depend on the processing

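Of 594 alternative values of the log2 differences of the 9 genes, 566 kept their sign and 28 did not, and 592 moved by less than 1 SD between replicates. Many of these values could not change. Dropping the filter, using only the 6 samples compared, blocking, or setting zeros as missing leaves the difference of these genes as it is. So does leaving out a sample of the condition not compared. With a replicate number left out, the block repeats the value without it. The tally is therefore no measure of stability. Every sign change was in a difference of at most 0.09 in size: 4OHT versus DMSO for *Fosb* (-0.16 at the lowest), *Fosl1* (-0.20), *Fosl2*, *Jun* and *Egr1*, and E2 versus DMSO for *Fosl2*, *Junb* and *Jund*. Those of *Fosb* and *Jund* changed sign under upper-quartile scaling as well as with samples left out, and the others with samples left out. The differences of *Fos* and *Atf3* kept their sign in all 3 comparisons. The 2 that moved further were *Jund* in 4OHT versus DMSO. Counts of genes past the threshold moved in many of the settings, and the cause was not tested. Read totals were not used here, so no depth limit is given for the low genes *Fos*, *Fosb* and *Fosl1*. No scaling moved the median log2 fold change of all rows by 0.1.

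For E2 versus DMSO, 2 of the 9 genes passed, with 2 at a pseudocount of 0.1, 1 without the filter, 0 with only the 6 samples compared, 5 with the replicate block, and 6 with the block and exact zeros as missing. The other pathway genes went from 5 to 2 without the filter, 3 with upper-quartile scaling, 1 with the 6 samples, 47 with the block and 53 with the block and zeros as missing. All genes went from 58 to 8 with the 6 samples, 1702 with the block and 2110 with the block and zeros as missing. With 1 sample, or 1 replicate number of every condition, left out, the counts ran from 0 to 1 for the 9 genes, from 0 to 4 for the other pathway genes and from 6 to 125 for all genes. With replicate number 1, 2 or 3 left out under the block, they were 3, 2 and 2, then 17, 11 and 6, and 542, 305 and 155.

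For 4OHT versus DMSO the 9 genes stayed at 0 in all these settings. The other pathway genes stayed at 0, except for 1 without replicate number 3, with or without the block. All genes went from 0 to 5 without the filter, 3 with the 6 samples and 6 with the block and zeros as missing, with 0 to 7 over the samples or replicate numbers left out, and 4, 5 and 7 without replicate number 1, 2 or 3 under the block.

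For E2 versus 4OHT, 1 of the 9 passed, with 0 without the filter, 0 with the 6 samples, 6 with the block and 6 with the block and zeros as missing. The other pathway genes went from 1 to 4 with zeros as missing, 43 with the block and 55 with both. All genes went from 18 to 10 at a pseudocount of 0.1, 5 without the filter, 7 with the 6 samples, 37 with zeros as missing, 1840 with the block and 2455 with both. Over samples or replicate numbers left out the counts were 0 to 1, 0 to 2 and 0 to 72, and under the block, without replicate number 1, 2 or 3, they were 3, 2 and 1, then 8, 5 and 1, and 234, 167 and 85.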
